A study of Mus musculus with 20 samples.

Results

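The open chromatin of epidermis treated with UVB was compared with that of epidermis treated with vehicle. The deposited peak list of each group was merged into regions of overlapping peaks, which gave 73340 UVB regions and 70008 vehicle regions. A UVB region that no vehicle region overlapped by 1 bp or more was called gained, a vehicle region that no UVB region overlapped was called lost, and the rest were called shared. Merged together, the lists held 80994 regions, of 101406 in all 10 lists of the study, and they rest on 4 of its 20 libraries. Both groups are mice of the genotype Lrig1CreER/Rosa-TdTomato, in which a Cre recombinase made under the Lrig1 gene switches on a red fluorescent protein once it is activated. Lrig1 is expressed in the upper hair follicle, and the red cells are those that expressed it and their descendants (Lrig1 GL). Such cells that also carried the surface protein Sca1 were sorted from tail epidermis and profiled by ATAC-seq, which uses the Tn5 transposase to place adapters in accessible DNA. The labels do not give the UVB dose or schedule, the time between treatment and sorting, the substance used as vehicle, or the age and sex of the mice. Each group has 2 libraries and 1 peak list made from them, so replicates could not be compared and none of the differences below carries a test. Intervals are Wilson 95% intervals of a share and cover counting error only. Other groups are used as further lists without a place in the rule: wounded and UVB treated epidermis, epidermis treated with PRT4165 (an inhibitor of the Polycomb complex PRC1), untreated homeostasis, and the rest of the wound series.

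As background, UVB is absorbed by DNA and joins neighbouring pyrimidine bases. Keratinocytes remove these lesions by nucleotide excision repair, activate p53 and stress kinases whose targets include the AP-1 transcription factors, and release cytokines and signals that reach melanocytes. An ATAC-seq peak marks DNA that Tn5 can reach, often a promoter or an enhancer, and does not by itself show that the nearest gene is transcribed.

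The promoter sequences below show where called regions met start sites at genes of stress, barrier and immune function, and they were chosen after their values were seen. Each is the 250 bases before a RefSeq start in GRCm38.p6 (the assembly of mm10), 5′ to 3′ on the gene's strand. Capitals mark letters that match a motif searched on both strands: TGANTCA for AP-1, CCAAT for the CCAAT box, TATAAA for the TATA box, TGACNNNGC for the antioxidant element, CACGTG for the E-box, and an NF-kB pattern given here by name only, a run of G and a pair of C with a spacer between them. The NF-kB pattern is loose and occurs in 50.8% of all RefSeq promoter windows. The first 4 promoters had a gained region and the last 3 a lost region. Mmp13, a collagenase of matrix remodelling, is shown for an AP-1 match close to its start (chr9:7272264-7272513, plus strand). Sprr1b, a cornified envelope protein, also held an AP-1 match (chr3:92438780-92439029, minus strand). Chst4, a carbohydrate sulfotransferase, had a gained promoter region of high signal value (chr8:110039335-110039584, minus strand). Hrh2, the histamine H2 receptor, is the gene whose shared regions rose most in rank (chr13:54191879-54192128, plus strand). Edn1, endothelin-1, is a keratinocyte signal to melanocytes (chr13:42301226-42301475, plus strand). Ccl20 is a chemokine (chr1:83116516-83116765, plus strand). St6galnac3, a sialyltransferase, had a lost promoter region of high signal value (chr3:153725134-153725383, minus strand).
Mmp13: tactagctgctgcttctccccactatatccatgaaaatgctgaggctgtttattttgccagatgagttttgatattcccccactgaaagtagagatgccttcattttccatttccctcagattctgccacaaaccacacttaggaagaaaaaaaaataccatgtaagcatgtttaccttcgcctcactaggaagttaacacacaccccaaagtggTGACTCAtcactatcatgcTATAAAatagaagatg
Sprr1b: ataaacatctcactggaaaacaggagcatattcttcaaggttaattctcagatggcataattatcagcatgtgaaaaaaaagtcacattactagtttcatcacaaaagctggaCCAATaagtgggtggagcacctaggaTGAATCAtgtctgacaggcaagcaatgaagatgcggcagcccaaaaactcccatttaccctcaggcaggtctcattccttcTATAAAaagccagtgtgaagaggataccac
Chst4: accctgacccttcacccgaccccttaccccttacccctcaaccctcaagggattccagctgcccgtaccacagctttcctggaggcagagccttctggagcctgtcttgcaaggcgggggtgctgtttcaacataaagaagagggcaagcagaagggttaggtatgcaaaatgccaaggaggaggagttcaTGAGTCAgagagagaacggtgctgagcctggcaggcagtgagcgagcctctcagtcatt
Hrh2: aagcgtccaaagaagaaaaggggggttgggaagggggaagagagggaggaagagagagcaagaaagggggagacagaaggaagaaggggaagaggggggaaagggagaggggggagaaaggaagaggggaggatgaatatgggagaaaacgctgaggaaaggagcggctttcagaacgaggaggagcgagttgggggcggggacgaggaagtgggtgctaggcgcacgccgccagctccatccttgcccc
Edn1: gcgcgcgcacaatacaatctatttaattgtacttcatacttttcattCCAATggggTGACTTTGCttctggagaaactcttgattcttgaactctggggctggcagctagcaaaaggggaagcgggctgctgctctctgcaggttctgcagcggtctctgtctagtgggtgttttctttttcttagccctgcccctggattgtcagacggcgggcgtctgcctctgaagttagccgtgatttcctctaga
Ccl20: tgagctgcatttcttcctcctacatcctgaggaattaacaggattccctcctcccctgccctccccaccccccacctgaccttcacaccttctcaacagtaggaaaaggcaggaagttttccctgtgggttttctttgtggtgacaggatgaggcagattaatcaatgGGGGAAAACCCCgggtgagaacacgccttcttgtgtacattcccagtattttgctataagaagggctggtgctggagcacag
St6galnac3: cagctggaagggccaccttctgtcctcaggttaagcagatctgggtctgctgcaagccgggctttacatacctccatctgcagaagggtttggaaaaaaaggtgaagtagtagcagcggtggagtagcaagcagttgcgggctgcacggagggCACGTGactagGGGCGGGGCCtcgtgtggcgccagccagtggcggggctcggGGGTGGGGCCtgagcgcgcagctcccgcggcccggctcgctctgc

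The capitals in Mmp13 lie 35 to 29 bases (AP-1) and 16 to 11 bases (TATA box) before the start. In Sprr1b they lie 137 to 133 bases (CCAAT box), 111 to 105 bases (AP-1) and 30 to 25 bases (TATA box) before it. The region over the Mmp13 start had a signal value of 9.9, the authors' measure of enrichment, which put it above 50.8% of UVB regions. It was also present with wound and UVB and in both cultured lists, and absent with PRT4165 and in homeostasis. Over the Hrh2 start the value was 12.1, above 65.5% of UVB regions, and of the other 8 lists only wound and UVB held that region. Over the Sprr1b start it was 5.86, above 15.8%, and the region was in neither wound and UVB nor PRT4165. The Chst4 region had 15.7 and was present with PRT4165 but not with wound and UVB. Among lost regions, that at St6galnac3 had 15 in vehicle, above 83.4% of vehicle regions, and was present with PRT4165 and in homeostasis and absent with wound and UVB. Those at Ccl20 (7.59) and Edn1 (5.32) were absent from the UVB list and present with wound and UVB.

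The lists of the series held 34644 to 73340 regions, and the read depth behind them is unknown. UVB, vehicle, PRT4165 and wound with UVB had lists of like length, with 66541 to 73340 regions. Lrig1, Krt5, Krt14 and Ly6a, which encodes Sca1, each had a region with its summit within 1 kb of a gene end in both UVB and vehicle. Lrig1 stood at percentile 74.7 by signal value in UVB and 75 in vehicle, Krt5 at 20.5 and 27.9, Krt14 at 11.8 and 11.5, and Ly6a at 7.8 and 7.34. Trp63, the regulator of stratified epithelium, had 28 regions in each list and none at its ends. The Y-linked Ddx3y, Uty and Eif2s3y had no end region in UVB, vehicle or PRT4165, and had one with wound and UVB, above 95.5% of its regions or more. The list used below as the other UVB list therefore differs from the 3 others in Y-linked chromatin, and its part in the results was not tested.

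The UVB list gained 11862 regions, 16.2% of its regions, and lacked 8108 vehicle regions, 11.6% of the vehicle list. With both lists cut to equal length by signal value there were 10333 gained and 9798 lost regions, shares of 14.8% and 14.0%. Lists of equal length must give nearly equal counts, so this cut cannot show what the surplus of gained regions rests on. Called regions were mostly weak and narrow. The median signal value was 6.73 in gained regions and 6.06 in lost regions, against 10.7 in UVB and 9.69 in vehicle at shared regions. Gained regions had a median width of 405 bp and lost regions 384 bp, against 635 bp for shared regions in UVB. From the weakest to the strongest 25% of the UVB list, the share gained was 34.6%, 21.6%, 7.43% and 1.15%. The lost share of the vehicle list ran 27.5%, 14.3%, 3.85% and 0.646% in the same order. Only 211 gained and 113 lost regions lay in the strongest 25% of their own list.

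**Figure D1:**
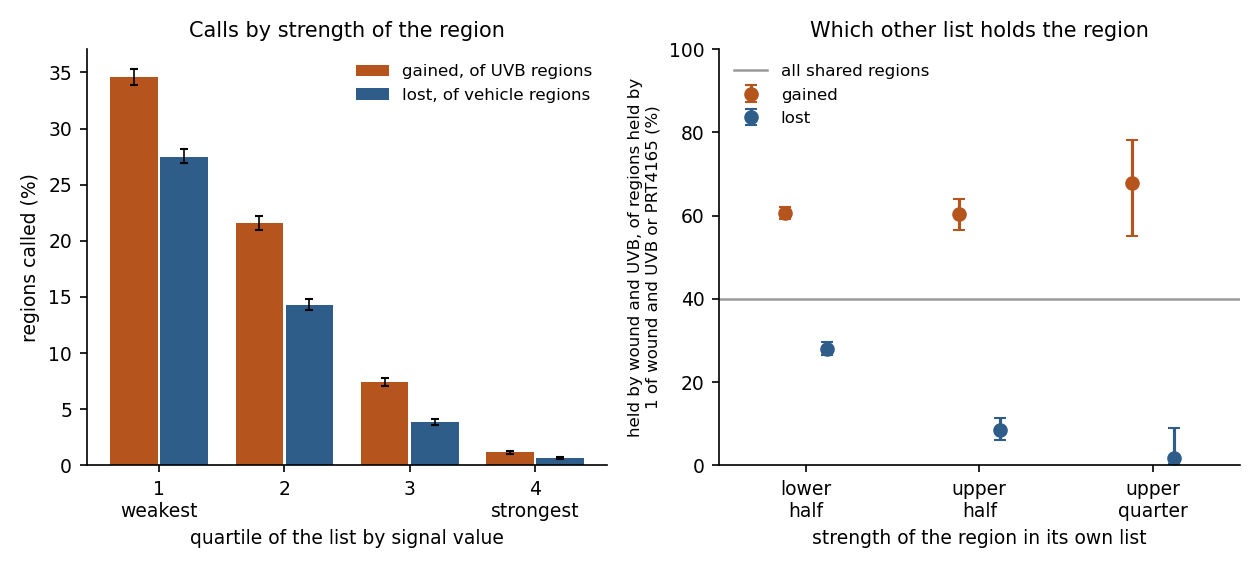
Left, share of regions gained (of UVB regions) or lost (of vehicle regions) by quartile of signal value in the list, from 34.6% and 27.5% in the weakest to 1.15% and 0.646% in the strongest. Right, of called regions held by exactly 1 of the lists wound with UVB and PRT4165, the share held by wound with UVB, by strength of the region; the grey line is the 40% of shared regions, and bars are Wilson 95% intervals.

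Gained and lost regions were then looked up in lists that the rule did not use. Wound with UVB held 41.9% of gained regions (41.0 to 42.8%) and 29.5% of lost regions (28.5 to 30.5%). PRT4165, a treatment without UVB, held 33.8% of gained (33.0 to 34.7%) and 50.3% of lost regions (49.2 to 51.4%). Homeostasis held 2.43% of gained and 3.35% of lost regions, against 55.6% of shared regions. The cultured control list held 24.8% of gained and 21.0% of lost regions. The UVB list was the only holder, of all 10 lists, of 3674 gained regions (31.0%), and the vehicle list of 2249 lost regions (27.7%). A further 1571 gained regions (13.2%) were in UVB and in wound with UVB and in no other list.

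**Figure D2:**
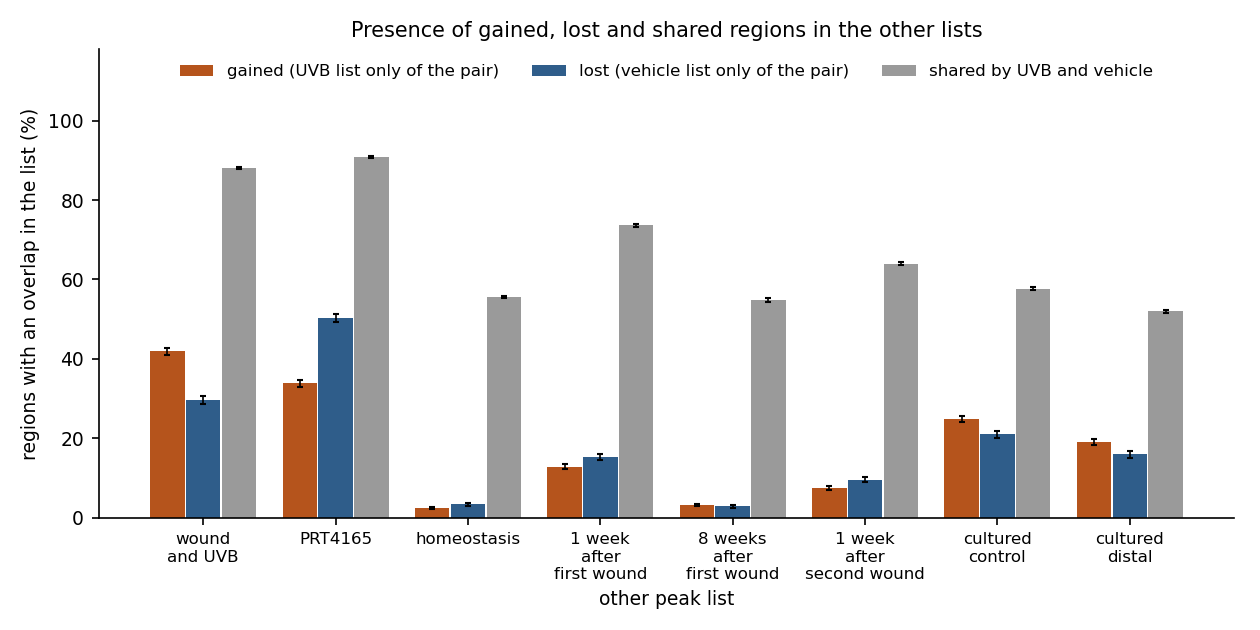
Share of gained, lost and shared regions that overlap a region of each of the other 8 lists, with Wilson 95% intervals. Gained regions are more often present with wound and UVB (41.9%) than lost regions (29.5%), and the order turns with PRT4165 (33.8% and 50.3%).

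Wound with UVB and PRT4165 share no list with the rule, so regions that exactly 1 of them holds give a separate view. Of gained regions, 2738 were in wound with UVB alone of this pair and 1777 in PRT4165 alone, a share of 60.6% (59.2 to 62.1%) for wound with UVB. Of lost regions, 878 were in wound with UVB alone and 2565 in PRT4165 alone, a share of 25.5% (24.1 to 27.0%). Shared regions lay between, at 40% (38.9 to 41.0%). The contrast was wider among strong lost regions: of those in the strongest 25% of the vehicle list, 1 was in wound with UVB alone and 58 in PRT4165 alone. The corresponding counts of gained regions were 40 and 19. Most strong gained regions were in a list without UVB as well, since PRT4165 held 159 of the 211 (75.4%) and wound with UVB held 85.3%. Whether UVB or another difference between these libraries, such as a batch, goes with the pattern cannot be told apart, since the labels give no batch.

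In regions present in both lists the order of signal values was close. Over 61024 shared regions of the merged lists, the percentile rank by signal value in UVB and that in vehicle had a Spearman correlation of 0.91 across regions, which are not independent replicates. A rise of 25 percentile points or more, the size counted here, was seen in 2083 regions (3.41%) and a fall of that size in 1220 (2.0%). The regions next to the threshold had shifts of 25.0008 and 24.9934 points. Ranked by −log10 p, the authors' significance of the peak, 1438 regions rose and 1775 fell, so which direction was more common turned with the value that was ranked. PRT4165 against vehicle had shifts of this size in 1.62% (rise) and 1.04% (fall) of its shared regions, and UVB against PRT4165 in 3.76% and 2.63%. These comparisons share lists with the rule and are given for scale. Risen regions had a median signal value of 13.0 in UVB and 7.58 in vehicle, and fallen regions 8.22 and 11.4. The SD of the shift over shared regions was 12.2 points.

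The same regions were ranked in wound with UVB and in PRT4165, where both held them. Of the 2083 risen regions, 1400 could be ranked there, with a median shift of 15.4 points towards wound with UVB and a positive shift in 79.3% (77.1 to 81.3%). Of the 1220 fallen regions, 833 could be ranked, with a median shift of -14.1 points and a positive shift in 19.9% (17.4 to 22.8%). Regions that had moved by under 25 points had a median shift of -0.916 and a positive shift in 45.4%. A rise of 25 points or more in this second pair was seen in 31.3% of risen, 2.16% of fallen and 3.62% of the other regions.

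**Figure D3:**
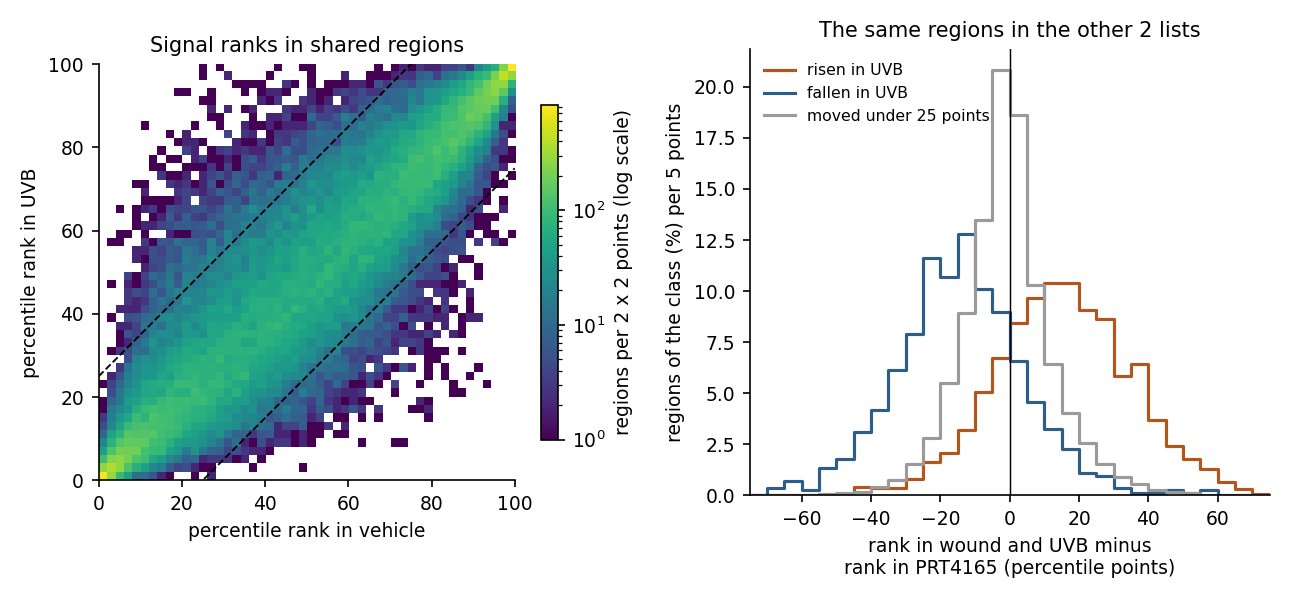
Left, percentile rank by signal value in UVB against that in vehicle for 61024 shared regions, as counts per square of 2 by 2 points on a log colour scale, with dashed lines at a shift of 25 points. Right, difference in rank between wound with UVB and PRT4165 for regions that had risen (median 15.4), fallen (median -14.1) or moved by under 25 points (median -0.916) between UVB and vehicle.

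By position, called regions lay away from gene ends. The summit was within 1 kb of the end of a protein-coding gene for 8.32% of gained (7.84 to 8.83%), 6.17% of lost (5.66 to 6.71%) and 20.2% of shared UVB regions. Inside a gene span lay 51.6% of gained, 53.1% of lost and 52.4% of shared UVB regions. Of risen regions 7.44% and of fallen regions 4.92% were near a gene end, against 20.1% of all shared regions. Among autosomes the share gained ran from 14.3% (chromosome 7) to 18% (chromosome 11), and the share lost from 10% (chromosome 17) to 13.0% (chromosome 3). The X chromosome had 247 of its 1528 vehicle regions lost (16.2%), above every autosome, and 15.6% of its UVB regions gained, within the autosomal range. Its share of lost regions was 3.05% (2.69 to 3.44%), against 2.07% of shared vehicle regions.

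The promoter windows of RefSeq, 250 bases before to 50 after each start, gave 548 windows of 497 genes that met a gained region and 307 windows of 287 genes that met a lost one, against 13499 that met a region in both lists. The AP-1 letters were in 11.1% of gained (8.76 to 14.0%), 7.49% of lost (5.04 to 11.0%), 5.64% of windows open in both lists, 9.36% of windows open in neither and 7.81% of all windows. The cAMP response element TGACGTCA was in 5 gained windows, 0.912% (0.39 to 2.12%), and 12 lost windows, 3.91% (2.25 to 6.71%). It was in 3.19% of windows open in both lists, 0.765% of windows open in neither and 1.79% of all windows. The ETS letters CCGGAAGT were in 0.73% of gained, 0.651% of lost and 8.15% of windows open in both lists. Median GC content was 57.7% in gained, 55.3% in lost and 61.7% in windows open in both, and its part in these shares was not tested. The p53 pattern, a single p53 site made of a pair of adjoining parts without a spacer, was in 0 gained and 0 lost windows. It was in 3 of 32851 windows in all. The loose NF-kB pattern was in 65% of gained, 54.1% of lost, 69.5% of windows open in both lists and 50.8% of all windows. These are matches of letters and not sites of binding.

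The 5 strongest gained and the 5 strongest lost regions lay outside protein-coding gene spans, and each was present in PRT4165. The gained region with the highest signal value, 23.4, lay beside Abcc12, an ABC transporter (chr8:86501160-86501891), and the next beside Slc5a7, a choline transporter (22.2). These, and those beside Ywhag (22.0) and Nkx2-1 (21.9), were held by wound with UVB and by PRT4165, and that beside Adgb (21.9) by PRT4165 and not by wound with UVB. The strongest lost region, 25.2, lay beside Lce3e, a late cornified envelope gene (chr3:92978529-92978851), and was held by 7 of the other 8 lists. Lost regions beside Tmem167 (19.9), Adamts20 (19.4) and Grm8 (18.8) were in PRT4165 and not in wound with UVB. That beside Arrdc4 (20.3), a gene of the arrestin family, was in both.

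The largest rise in rank was inside Sox6, a transcription factor gene (chr7:115844332-115844833), with a signal value of 26.9 in UVB and 6.95 in vehicle, a shift of 74.8 points. It was 26.7 with wound and UVB, 11.5 with PRT4165 and not in the homeostasis list. As for the regions that follow, UVB and vehicle differ here by choice, and only the other lists give a separate view. A region inside Prkca, protein kinase C alpha, had 19.9 in UVB, 6.59 in vehicle, 20.1 with wound and UVB and 7.91 with PRT4165. One inside Erv3 had 25.3, 7.39, 19.6 and 11.1 in the same order. By contrast a region beside Flrt2 had 22.8 in UVB and 7.04 in vehicle, and 12.1 with wound and UVB beside 11.4 with PRT4165. The largest fall was inside Plcb1, a phospholipase C gene (chr2:135175488-135176154), with 7.37 in UVB and 19.1 in vehicle, a shift of -70.2 points. That region had 17.7 with PRT4165 and was not in the list of wound with UVB. A region inside Sox5, a relative of Sox6, had 7.69 in UVB, 17.6 in vehicle and 23.9 with PRT4165, and was not in wound with UVB either.

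Regions were assigned to the shortest protein-coding gene that contained the summit, or to the nearest gene end within 100 kb. Of 15966 genes with a region, 4809 (30.1%) had more gained than lost regions, 2675 (16.8%) had more lost than gained, and 8482 had equal numbers. The highest surplus was at Rora, a nuclear receptor of the circadian clock that also acts in keratinocyte differentiation, with 18 gained, 4 lost and 27 shared regions, all within its span of 735 kb. The signal values of these gained regions ran from 3.27 to 13.2. Wound with UVB held 10 of the 18 and PRT4165 held 5, and set against each other those lists gave 16 gained and 5 lost regions at Rora. The gained and lost shares of this second pair over all regions are not given here. Its lists held 66541 (wound with UVB) and 68411 (PRT4165) regions, and its counts at genes and gene lists have no background beside them. Its shared regions had a median shift of -3.49 points. In all, 45 UVB, 32 vehicle, 40 wound with UVB, 28 PRT4165 and 11 homeostasis regions lay at Rora. The order of UVB and vehicle follows from how Rora was chosen, and the homeostasis list is shorter. Among gained regions of the stronger 50% the surplus at Rora was 1.

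Kcnk2, a mechanosensitive potassium channel, had 12 gained, 0 lost and 6 shared regions, with gained signal values from 5.21 to 18.1. Here PRT4165 held 7 of the 12, as did wound with UVB, and the counts were 18 in UVB, 6 in vehicle, 14 with wound and UVB and 13 with PRT4165. Homeostasis and the wound series, with shorter lists, had 3 to 7. Wound with UVB against PRT4165 gave 2 gained and 1 lost. Sash1, a signalling scaffold, had 10 gained and 2 lost regions, and 8 and 5 in the second pair. Atxn1, a nuclear protein that binds transcriptional repressors, had 7 gained and 0 lost, and 11 and 1. Glis1, a Gli-like zinc finger factor, had 6 and 0, and 4 and 0. At Fmn1, a formin of the actin cytoskeleton, the pairs went opposite ways, with 7 gained and 0 lost against 0 gained and 10 lost. Zhx2 (10 gained, 1 lost), Rgs3 (10 and 2) and Thsd4 (9 and 1) gave 4 and 3, 0 and 3, and 3 and 0 in the second pair.

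**Figure D4:**
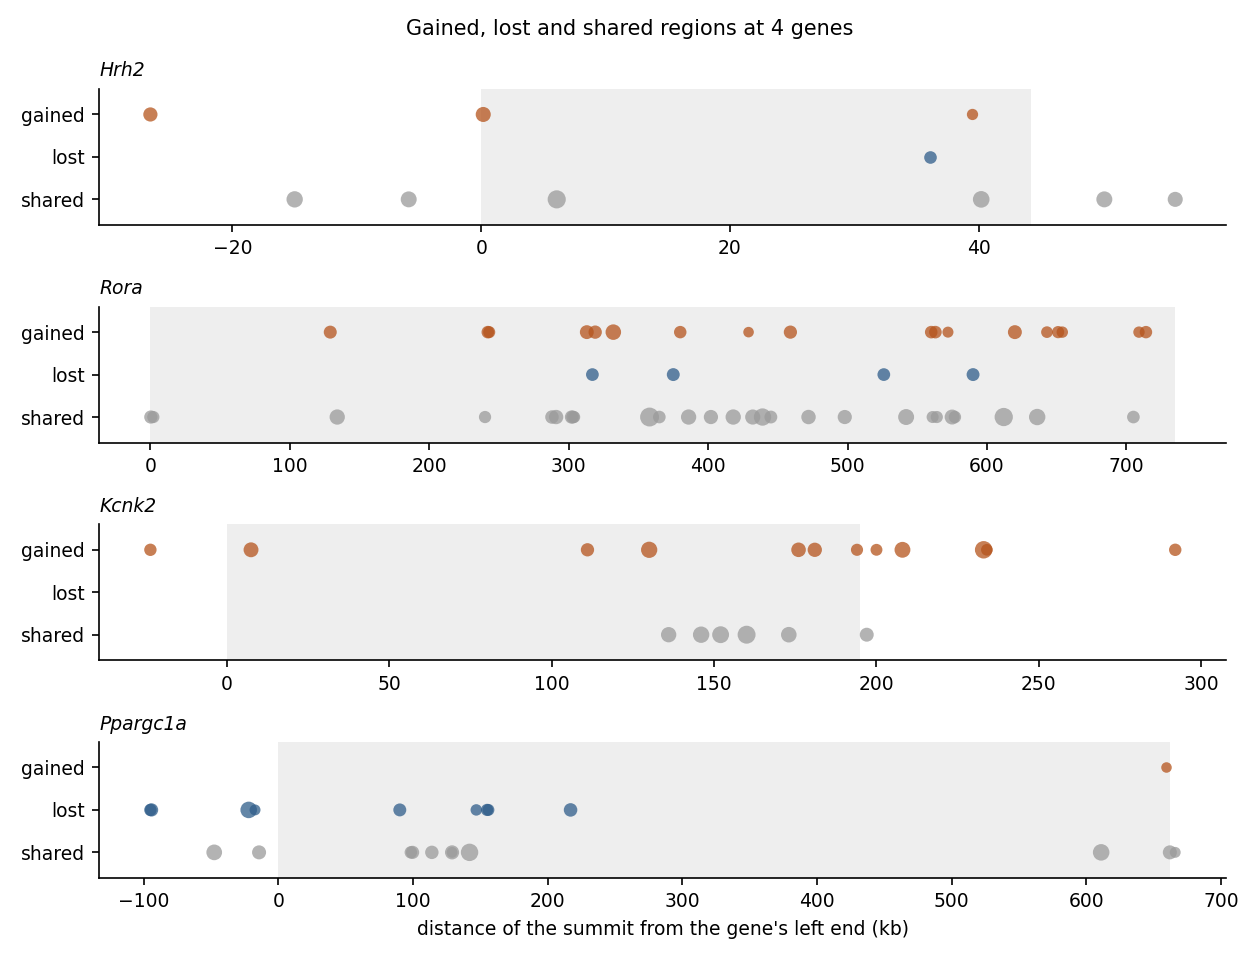
Summits of gained, lost and shared regions at Hrh2, Rora, Kcnk2 and Ppargc1a by distance in kb from the gene's left end in the assembly, with point area growing with signal value and the gene span in grey. Rora has 18 gained and 4 lost regions along its span, Kcnk2 has 12 and 0, and Ppargc1a has 1 and 9.

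The lowest balance was at Ppargc1a, a coactivator of mitochondrial genes, with 1 gained, 9 lost and 11 shared regions. Lost signal values ran from 3.87 to 15.7, and the strongest lay 22.0 kb outside the gene (chr5:51432082-51432480). None of the 9 was in wound with UVB and 5 were in PRT4165. The counts were 12 in UVB, 21 in vehicle, 7 with wound and UVB and 15 with PRT4165, and the second pair gave 2 gained and 10 lost. The lists of homeostasis and the wound series, which are shorter and without UVB, also had low counts at Ppargc1a, 5 to 8. The part of list length in these counts was not tested. Dab1, an adaptor of reelin signalling, had 0 gained and 8 lost regions, and 1 and 7 in the second pair. Nav2, a cytoskeletal protein, had 1 and 8, and 4 and 11, although among regions of the stronger 50% its balance was 1 towards gained. Rbfox1, a splicing factor, had 6 lost regions and none in UVB, with 6 in vehicle, 1 with wound and UVB, 5 with PRT4165 and 0 in homeostasis. Setbp1 had 0 gained and 8 lost, and 2 and 4 in the second pair. Bcl6, a transcriptional repressor, had 0 and 7, and 2 and 0 in the second pair. Spata13 (0 and 7) and Trpc4 (2 and 8) gave 1 and 2, and 3 and 5.

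Among the 3718 genes with 5 or more shared regions, Hrh2 had the highest median shift, 47.3 points, and all 6 of its shared regions rose by 26.3 to 53.2. The signal values of these regions were 15.2, 14.2, 19.9, 15.9, 14.3 and 12.1 in UVB, against 6.95, 6.68, 8.46, 10.1, 7.31 and 7.58 in vehicle, in order along the chromosome from chr13:54176549 to chr13:54247980. Hrh2 was picked by the ranks of these regions, so their higher values in UVB follow from the choice. The medians of the whole lists were 9.8 and 9.05. In the second pair, 5 of these regions could be ranked and the median shift of regions at Hrh2 was 43.5. The gene also had 3 gained regions, all held by wound with UVB and none by PRT4165, and 1 lost region, held by PRT4165 and not by wound with UVB. Hrh2 encodes a receptor for histamine that raises cAMP.

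Other genes with high median shifts were Pou2f2, a POU transcription factor (22.3), Rptor, a subunit of the mTOR complex (22.0), Specc1 (20.4), Glis1 (18.7) and Celf4 (18.7), with 18.4, 9.46, 29.0, 5.58 and 8.11 in the second pair. The lowest were Vapb (-23.9), Plcb1 (-23.7), Itgb8 (-20.7), Qpct (-20.3), Col19a1 (-18.7) and Ndp (-18.4), with -3.2, -10.2, -10.6, -6.23, -16.4 and -10.1 in the second pair. Itgb8, an integrin chain that activates latent TGF-beta, also had 0 gained and 3 lost regions, and 0 and 3 in the second pair. At Plcb1 there were 1 and 4, and 0 and 7. With Hrh2, all 12 of these genes moved the same way in both pairs, with the smallest shift of the second pair at Vapb. The medians of the second pair rest on few regions, from 2 at Plcb1 to 10 at Rptor. How often all genes moved the same way in both pairs is not given here.

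Gene lists were read beside all regions with a gene, of which 16% of UVB regions were gained and 11.1% of vehicle regions lost. The median shift there was -0.446 points. Of all genes with a region, 30.1% had more gained and 16.8% more lost regions. Shares given for a list are of its UVB regions (gained) and of its vehicle regions (lost). Nucleotide excision repair genes had 5 gained and 5 lost regions at 19 genes, 8.77% of their regions in each list, and 18 of the genes had an end region in UVB and 19 in vehicle. The difference was Ercc1, an endonuclease subunit, whose end region stood at percentile 1.29 in vehicle. Checkpoint and break repair genes had 5 gained and 2 lost (14.3% and 6.25%), with an end region at the same number of genes, 16, in both lists. The p53 targets had 21 gained and 12 lost regions at 25 genes, a balance of 9 that turned to -1 with lists of equal length and among regions of the stronger 50%. The shares of this list were 15.7% gained and 9.6% lost, and the second pair gave 15 gained and 19 lost regions. Of these 25 genes, 9 had more gained and 6 more lost. Their shared regions had a median shift of -3.6 points, and -3.48 in the second pair against -0.423 over all genes. Gadd45a, a stress sensor, and Plk2, a kinase, each had 4 gained and 0 lost. Cdkn1a, the p53-induced cell cycle inhibitor, had 5 shared regions and no gained or lost one, with shifts from -11.1 to 2.38. Apoptosis genes had 16 gained and 7 lost regions (18.6% and 9.09%), with more gained at 6 of 16 genes and more lost at 1. Wound with UVB held 5 of the 16 gained regions and PRT4165 held 7, and the second pair gave 17 gained and 17 lost. Bmf, a pro-apoptotic protein, had 5 and 1, and 4 of 9 shared regions of Bcl2l11 (Bim) rose.

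**Figure D5:**
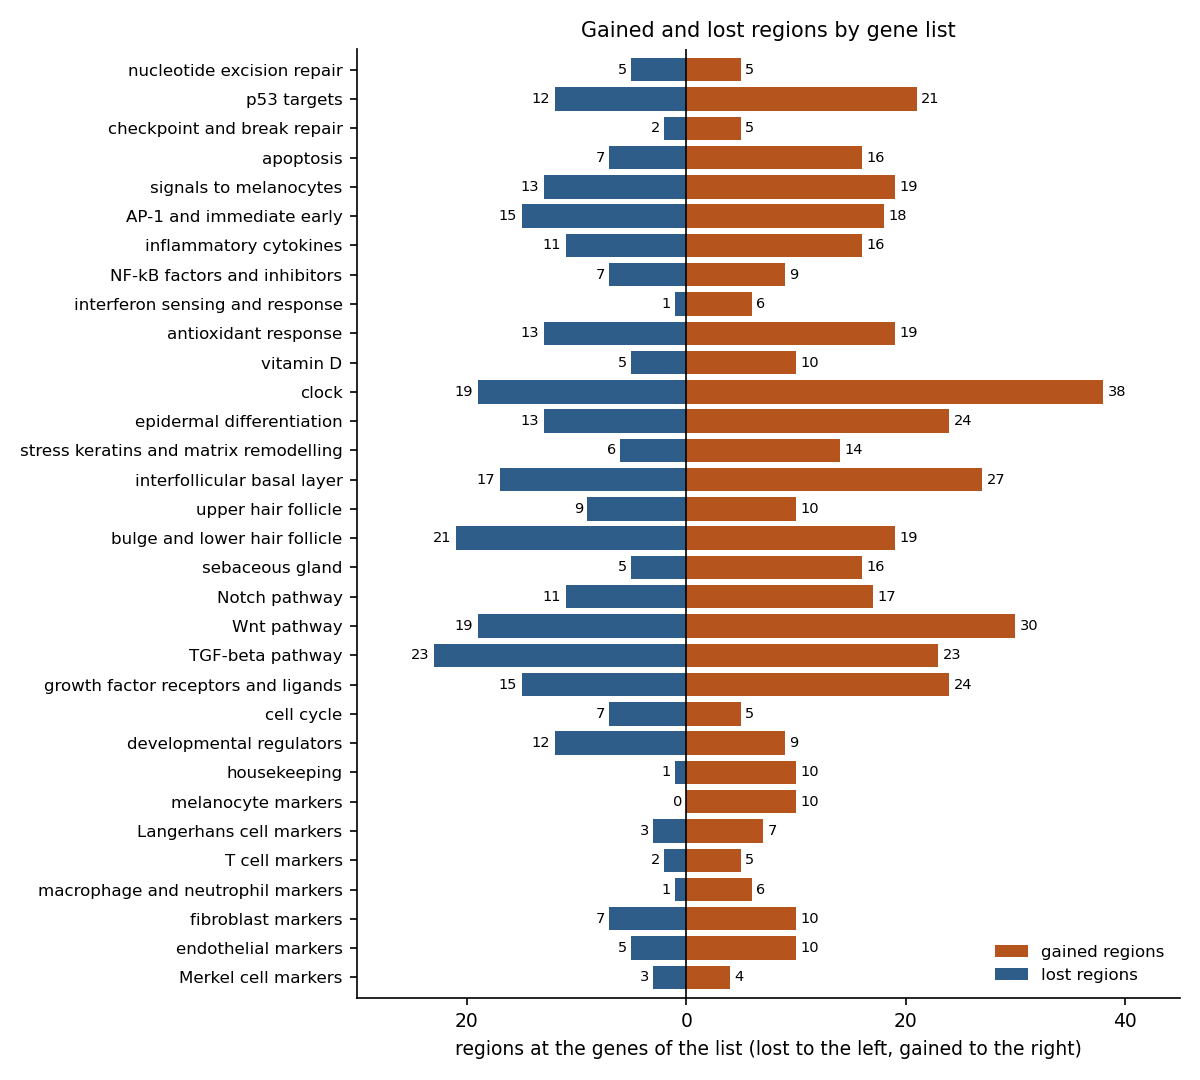
Gained (right) and lost (left) regions at the genes of each of 32 lists. The clock list has the most gained regions, 38, of which 18 lie at Rora, and melanocyte markers have 10 gained and 0 lost.

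AP-1 and immediate early genes had 18 gained and 15 lost regions, and with lists of equal length the balance of 3 became -22. With genes limited to 20 kb it was -2, among the stronger 50% it was -1, and the second pair gave 37 gained and 17 lost, so no direction held. Maff had an end region in UVB only and Jund in vehicle only. NF-kB genes had 9 and 7, with a balance of -3 within 20 kb, -7 at equal length and -2 at 50% overlap. For them the second pair gave 18 gained and 6 lost. Inflammatory cytokines had 16 gained and 11 lost, and the balance was 0 at equal length and -3 with PRT4165 in place of vehicle. In the second pair they had 10 gained and 14 lost. S100a9, a calprotectin subunit, gained its end region, which PRT4165 and wound with UVB held too, at percentiles 72.8, 84.2 and 76.7 of UVB, PRT4165 and wound with UVB. Interferon genes had 6 gained and 1 lost at 12 genes and a median shift of 5.86, with 4 of 31 shared regions risen, and the second pair gave 2 gained, 7 lost and a median shift of 2.87. Of these, Irf1 had 2 risen regions and Ifnb1 3 gained ones. Signals to melanocytes had 19 and 13, and 25 and 16 in the second pair. Bmp4 led this list (5 and 1), with Edn1 at 2 and 5 and Kitl, the ligand of Kit, at 3 and 1. In the second pair Edn1 had 8 gained and 0 lost, opposite to its balance with vehicle. Antioxidant genes had 19 and 13, with a balance of -6 at equal length and 10 gained and 19 lost in the second pair. Among them Maf had 6 and 1. Vitamin D genes had 10 and 5, and 13 and 6 in the second pair. Shares gained and lost were 10.7% and 9.09% for AP-1, 10.2% and 8.14% for NF-kB, and 18.6% and 13.6% for cytokines. They were 16.2% and 3.12% for interferon, 17.1% and 12.4% for melanocyte signals, 17.4% and 12.6% for antioxidant, and 15.6% and 8.47% for vitamin D.

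Clock genes had 38 gained and 19 lost regions, 22.2% and 12.5% of their regions in each list, but Rora gave 18 of the gained, and 7 of 18 genes had more gained and 4 more lost. At equal length the balance of the list fell from 19 to 1. Epidermal differentiation genes had 24 gained and 13 lost (16.8% and 9.85%), with more gained at 8 of 20 genes and more lost at 2. The balance of 11 became 5 at equal length and 4 within 20 kb. Grhl3, a regulator of barrier formation, had 5 and 1. Stress keratins and matrix genes had 14 and 6 (14.9% and 6.98%), and the balance of 8 became 2 at equal length. Mmp13 gave 5 of the 14 and had no shared region, with signal values of 12.7, 4.43, 11.4, 9.9 and 7.27 from left to right along chromosome 9. Wound with UVB held 3 of these and PRT4165 held 1, and the second pair gave 2 gained and 1 lost. Sebaceous gland genes had 16 and 5 (19.8% and 7.14%), with 8 of the gained in wound with UVB and 3 in PRT4165. At equal length they had 14 and 9. Scd1, a fatty acid desaturase, had 4 and 0. Basal layer genes had 27 and 17 (18.4% and 12.4%), with a balance of -2 at equal length and among the stronger 50%. Itga6, an integrin chain of hemidesmosomes, had 5 and 1, and 9 and 1 in the second pair. The upper follicle had 10 and 9 (balance -4 at equal length and -1 at 50% overlap) and the bulge 19 and 21 (balance 22 with PRT4165 as control). Their shares were 11.5% and 10.5% for the upper follicle, and 10.3% and 11.2% for the bulge.

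Wnt genes had 30 gained and 19 lost (13% and 8.68%), with a balance of -4 at equal length. Wnt7a and Wnt7b, epidermal ligands, had end regions in UVB and not in vehicle, and Ror2, a Wnt receptor, had 5 gained and 0 lost, and 7 and 0 in the second pair. Notch genes had 17 and 11 (12.8% and 8.66%, balance -9 at equal length). Growth factor genes had 24 and 15 (13.2% and 8.67%, balance -2 at equal length). TGF-beta genes had 23 and 23 (14.6% each), and 16 and 30 at equal length. Cell cycle genes had 5 and 7 (balance 2 among the stronger 50% and 1 with PRT4165 as control). Developmental regulators had 9 and 12 (1 and 5 under the same settings). The shares were 8.06% and 10.9% for the cell cycle, and 12% and 15.4% for developmental regulators. Housekeeping genes, as a control list, had 10 gained and 1 lost regions (17.5% and 2.08%). More were gained at 3 of 14 genes, and the surplus was like those of several lists above.

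Markers of other cell types were present in both lists. Melanocyte markers had 10 gained and 0 lost regions at 7 of 11 genes with a region, 31.2% of their UVB regions, and end regions at 4 genes in UVB and 3 in vehicle. Mitf had 4 gained, Mlana 3, and Dct, Pmel and Tyrp1 1 each, and the Mlana end region was in UVB only. The second pair had more lost than gained, 7 and 1, with no share over all regions beside these counts. Macrophage and neutrophil markers had 6 gained and 1 lost, Langerhans cell markers 7 and 3, and T cell markers 5 and 2. Endothelial markers had 10 and 5, fibroblast markers 10 and 7, and Merkel cell markers 4 and 3 (balance -1 among the stronger 50%). In that order the shares gained were 31.6%, 24.1%, 14.7%, 16.1%, 32.3% and 25%. The shares lost were 7.14%, 12%, 6.45%, 8.77%, 25% and 20%. Gained and lost in the second pair were 3 and 6, 10 and 6, 6 and 4, 9 and 11, 5 and 8, and 3 and 5. End regions were at 2 macrophage and neutrophil, 5 Langerhans, 3 T cell, 3 endothelial and 4 fibroblast markers in UVB, and at 3, 5, 4, 3 and 4 in vehicle. In sorted bulk samples, a larger share of a cell type and a more open region per cell cannot be told apart. The part of other cell types in the regions above was not tested.

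Called regions also lay close together in places. The densest stretch of 500 kb held 23 gained and 4 lost regions beside 44 shared ones (chr11:98586154-99083886), where Rara, a retinoic acid receptor, had 4 of them. Wound with UVB held 11 of the 23 and PRT4165 held 4. The stretch at Ahdc1 (chr4:133005320-133469920) held 20 gained regions, 11 in wound with UVB and 4 in PRT4165, and the one at Kcnk2 held 19, 9 and 10. Among lost regions, a stretch at Fcrl6 (chr1:172391381-172712572) had 13 lost and 0 gained beside 40 shared, of which wound with UVB held 1 and PRT4165 held 8. The densest, at Aopep (chr13:62879936-63331714), had 14 lost and 7 gained, and here wound with UVB held 10 and PRT4165 held 7.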

How the data were processed

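The data are 10 deposited peak lists, 1 for each group of 2 ATAC-seq libraries. Per the submitters' processing notes, coordinates are those of mm10. The sources used here do not give the peak caller, the filters or the depth. Each peak carries the authors' score (540 or higher), the deposited signal value of enrichment, and the authors' −log10 p (2 or higher). The names of the lists point to a reproducibility filter between replicates. Peaks on autosomes, X and Y that overlapped were merged, and a region took the signal value and summit of its strongest peak. Ranks were taken within the shared regions of a pair of lists. Genes (21887 protein-coding, spans without strand) and promoter windows came from RefSeq tables for GRCm38.p6, which had windows for 17492 of those genes. Of 502 genes on 32 lists, 501 were found.

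Named genes are the 8 of highest and the 8 of lowest gained minus lost, most genes of the 5 strongest called and most shifted regions, the 6 of highest and the 6 of lowest median shift, and members of each gene list. Predicted genes were left out. The members and lists were chosen with earlier results of these data known. PRT4165 in place of vehicle, start sites in place of gene ends, and wound with UVB against PRT4165 were added after the data were seen. Analyses ran in Python 3.11.15 with scipy 1.17.1, pandas 2.3.3, matplotlib 3.10.9 and numpy 2.4.6. On simulated lists with 3000 regions removed, 5000 added and 500 raised, the code found 3000, 5000 and 500.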

Additional observations from a re-analysis of the deposited data

How the results depend on the processing

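No paired analysis was possible because each group has 1 list and no value per library, so no replicate could be left out either. Against 11862 gained and 8108 lost regions (16.2% and 11.6%), the strongest 50% of each list gave 5970 and 4255 (lost share 12.2%), and strong regions that the whole other list lacked 1556 (4.24%) and 786 (2.25%). Homeostasis as control, a shorter list, gave 38897 (53%) and 382 (1.09%), a correlation of ranks of 0.81 and 2137 fallen regions. The shares were 18.8% and 14.9% at 50% overlap, 14.8% and 14.0% at equal length, and 18.4% and 11.3% with PRT4165 as control, with a correlation of 0.90. Ranked by −log10 p, 1438 regions rose and 1775 fell, against 2083 and 1220 by signal value. In the strongest 50% the correlation was 0.81 and 1856 regions fell. A window of 500 bp gave 4.77%, 3.64% and 16.4% of gained, lost and shared regions near a gene end, and start sites 7.11% and 19.5% of gained and shared. Strong regions alone gave 1135 genes with more gained and 514 with more lost.

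The balance of gained minus lost changed sign for these lists. With lists of equal length it was -1 for p53 targets, -22 for AP-1, -7 for NF-kB, -6 for antioxidant, -2 for the basal layer, -4 for the upper follicle, -9 for Notch, -4 for Wnt and -2 for growth factors. Among strong regions it was -1 for p53 targets, AP-1 and Merkel cells, -2 for the basal layer, 2 for the cell cycle and 1 for developmental regulators. Within 20 kb it was -2 for AP-1 and -3 for NF-kB, and at 50% overlap -2 for NF-kB and -1 for the upper follicle. With PRT4165 as control it was -3 for cytokines, 22 for the bulge, 1 for the cell cycle and 5 for developmental regulators. Among genes it became 1 for Nav2 (strong regions), -1 for Vdr (equal length), 1 for Gata6 (20 kb), and 3 for Nfatc1, 1 for Pax7 and -1 for Itgam (PRT4165). Of the other results for lists, 68 stayed within 1.5 times and 69 moved by more without changing sign or went to 0; for genes these were 135 and 94. The causes were not tested. Depth is unknown, so a weak region missing from a list may lie under its threshold.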
